A study of Mus musculus with 8 samples.

Results

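The Toll-like receptor genes of mouse neutrophils were followed together with Cd14 and Unc93b1, whose products serve these receptors. The 10 genes were taken from the count table by symbol: Tlr1, Tlr2, Tlr4, Tlr6, Tlr7, Tlr8, Tlr9, Tlr13, Cd14 and Unc93b1, of 24421 genes in all. RNA came from bone marrow neutrophils of 8-week-old female mice on the B6 background, isolated with magnetic beads. The 4 groups were WT and Padi4 KO neutrophils, each without stimulation (Nostim) or with R848 at 1 µg/ml for 6 h, with 2 libraries per group. Padi4 encodes the enzyme that converts arginine to citrulline in histones, and the KO animals carry a deletion of its exon 1. R848, or resiquimod, is a synthetic small molecule that activates Tlr7. The unstimulated libraries are titled 0 h, while the study's methods give 6 h of culture, so that the changes after R848 may also contain the effect of 6 h in culture. The study's methods say that samples were run in duplicate, and neither they nor the labels say whether the 2 libraries of a group came from separate mice. The p-values therefore measure the spread between libraries, which may be technical.

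Toll-like receptors bind molecules of microbes and signal through adaptors such as Myd88 to kinases of the Irak family and to the NF-kB and interferon regulatory factors. Tlr1, Tlr2, Tlr4 and Tlr6 sit at the cell surface and recognise lipids and lipoproteins, while Tlr7, Tlr8, Tlr9 and Tlr13 sit in endosomes and recognise nucleic acids. Unc93b1 is a membrane protein that carries the endosomal receptors out of the endoplasmic reticulum, and Cd14 is a surface protein that hands ligands such as lipopolysaccharide to the receptors. In lupus, endosomal receptors of RNA and DNA are known for their response to complexes that contain the body's own nucleic acids.

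The libraries held between 562446 and 1177972 counts on genes, which were 87.0% to 89.5% of the counts of all lines of the table. All WT libraries held 668857 or fewer and all KO libraries 716440 or more, so that depth differed with genotype. A floor of 3 counts corresponded to 2.55 to 5.33 CPM (counts scaled to a common library total) in these libraries, so that Tlr1, Tlr8 and Tlr9 were measured near the limit of detection in some groups. Padi4, the check of the labels, had 590 and 527 counts in WT Nostim and 40 and 54 in KO Nostim, and 166 and 234 counts in WT R848 against 34 and 21 in KO R848. The summed level of 7 neutrophil markers was high in all libraries, at 73711 to 102157 CPM of the library total, and Ly6g was not analysed here. Levels of the members are given below as CPM scaled with TMM factors, which adjust for the make-up of each library. A gene was tested if 2 or more libraries had a count of it, which held for all 10 genes and for 12254 of the table.

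The promoters of Tlr2, Tlr9, Tlr8 and Tlr13 are shown because their transcripts had the 4 kinds of pattern described below, namely a rise that differed between genotypes, a rise from near 0, a fall to near 0 and no called change after R848. Each stretch is a RefSeq window on GRCm38.p6 from 250 bases before to 50 bases after the transcript start, in the direction of the gene. Capitals mark matches on either strand to 5 motifs: NF-kB, PU.1 (GAGGAA), IRF (GAAANNGAA), AP-1 (TGANTCA) and C/EBP (TTGCNNAA), and adjoining or overlapping matches form 1 run.
Tlr2, chr3:83841559-83841858, minus strand: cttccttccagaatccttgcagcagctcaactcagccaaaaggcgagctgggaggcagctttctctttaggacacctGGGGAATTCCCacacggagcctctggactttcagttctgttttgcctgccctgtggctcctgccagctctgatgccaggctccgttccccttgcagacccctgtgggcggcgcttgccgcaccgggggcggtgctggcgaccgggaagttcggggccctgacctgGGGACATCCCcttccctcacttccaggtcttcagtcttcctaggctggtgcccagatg
Tlr9, chr9:106222348-106222647, plus strand: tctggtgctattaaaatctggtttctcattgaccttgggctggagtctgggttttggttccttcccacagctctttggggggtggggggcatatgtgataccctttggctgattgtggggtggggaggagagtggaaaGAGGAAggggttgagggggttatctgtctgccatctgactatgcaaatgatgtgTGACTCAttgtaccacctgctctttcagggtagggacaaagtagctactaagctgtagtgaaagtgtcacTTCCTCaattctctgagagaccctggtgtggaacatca
Tlr8, chrX:167264280-167264579, minus strand: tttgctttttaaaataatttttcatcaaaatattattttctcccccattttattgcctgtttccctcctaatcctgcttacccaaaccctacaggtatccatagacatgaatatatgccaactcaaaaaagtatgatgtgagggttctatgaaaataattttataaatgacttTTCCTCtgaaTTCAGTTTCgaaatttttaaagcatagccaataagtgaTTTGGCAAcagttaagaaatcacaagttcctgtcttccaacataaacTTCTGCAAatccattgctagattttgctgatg
Tlr13, chrX:106143025-106143324, plus strand: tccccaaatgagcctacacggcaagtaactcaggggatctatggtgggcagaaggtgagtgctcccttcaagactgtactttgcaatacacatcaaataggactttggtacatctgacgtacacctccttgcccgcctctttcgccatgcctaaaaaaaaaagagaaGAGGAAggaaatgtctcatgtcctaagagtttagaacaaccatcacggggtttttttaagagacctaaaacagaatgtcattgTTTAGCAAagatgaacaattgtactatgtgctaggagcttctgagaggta

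The Tlr2 window held 3 NF-kB matches, of which those at -173 and -172 overlapped and the third was at -8, and its GC content was 62.0%. The Tlr9 window held PU.1 matches at -112 and 13 and an AP-1 match at -58, and no NF-kB match. The Tlr8 window, with 32.3% GC, held a PU.1 match at -77, an IRF match at -67 and C/EBP matches at -29 and 19. The Tlr13 window held a PU.1 match at -83 and a C/EBP match at 1. Among 32851 RefSeq windows of the same length, 8.5% held an NF-kB match, 28.3% PU.1, 8.6% IRF, 7.8% AP-1 and 10.8% C/EBP, and their median GC content was 52.7%. These matches describe the letters of the windows, and binding of the factors was not measured. Of the members, 6 had an entry that was used, and Tlr1 and Tlr6 held entries at 2 starts each.

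The genes lie apart on the genome, with 2 exceptions. Tlr1 and Tlr6 are neighbours on the minus strand of chromosome 5 of GRCm38, at 64924679 to 64933563 and 64952031 to 64960097, and Tlr7 and Tlr8 are neighbours on the minus strand of chromosome X, at 167304929 to 167330558 and 167242696 to 167264329. Tlr13 lies elsewhere on chromosome X, from 106143204 to 106160493, Tlr2 on chromosome 3, from 83836272 to 83841767, Tlr4 on chromosome 4, from 66827584 to 66930284, Tlr9 on chromosome 9, from 106222598 to 106226883, and Unc93b1 on chromosome 19, from 3935186 to 3949340. No exon of the 10 genes overlapped an exon of another gene in the GENCODE annotation. Tlr1 and Tlr6 shared 454 stretches of 50 bases, which were 13.6% of those of Tlr1 and 12.3% of those of Tlr6. With all other genes included, 15.4% of the stretches of Tlr1 and 12.3% of those of Tlr6 were shared. How reads from these stretches were counted is not given in the sources used here, and the counts of Tlr1 and Tlr6 are uncertain to that extent.

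Without stimulation, WT neutrophils had mostly transcripts of the endosomal receptor Tlr13, which senses ribosomal RNA of bacteria, and of the chaperone Unc93b1. On the scale of CPM per kb of exon, which allows levels of different genes to be compared, Unc93b1 stood at 107 ± 11.3 (SD, n = 2), Tlr13 at 75.3 ± 0.43 and Tlr2 at 29.8 ± 0.0042. Tlr7, at 17.4 ± 1.27 CPM per kb, and Tlr8, at 15.6 ± 2.16, followed and overlapped each other. Tlr4, Cd14 and Tlr6 lay between 5.94 and 10.0 CPM per kb on average, and Cd14 overlapped both of the others. Tlr1, at 1.08, and Tlr9, at 0.470 CPM per kb, were the lowest and overlapped each other.

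In KO Nostim the order began in the same way, with Unc93b1 at 93.3 ± 0.68, Tlr13 at 54.6 ± 0.38 and Tlr2 at 51.8 ± 2.09 CPM per kb, and Cd14 followed at 15.7 ± 2.76. Tlr7 stood at 6.35 ± 0.70 CPM per kb in these libraries and overlapped Tlr6, at 6.03 ± 0.16. After R848 the order changed at the top in both genotypes. In WT R848, Cd14 stood at 1738 ± 211 CPM per kb, Tlr2 at 357 ± 47.1, Unc93b1 at 233 ± 26.8 and Tlr13 at 90.0 ± 7.75, with no overlap between neighbours in this order. In KO R848, Cd14 stood at 831 ± 38.3, Unc93b1 at 220 ± 8.02, Tlr2 at 165 ± 8.38 and Tlr13 at 61.6 ± 4.45 CPM per kb, again without overlap, so that Tlr2 and Unc93b1 were in the opposite order in the 2 genotypes. Tlr8 was at the bottom after R848 in both.

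After R848, Tlr2 took a larger share of the receptor transcripts. The 4 surface receptors held 29.7% and 30.4% of the summed CPM per kb of the 8 Tlr genes in WT Nostim and 77.8% and 76.5% in WT R848. In Padi4 KO neutrophils they held 49.5% and 47.0% without stimulation and 71.4% and 68.1% after R848. The libraries of each group lay apart from those of the other groups in this share, and KO neutrophils had the higher share before and the lower share after R848. Tlr2 alone held 19.1 ± 0.39% in WT Nostim, 72.3 ± 1.25% in WT R848, 36.5 ± 0.38% in KO Nostim and 62.0 ± 2.16% in KO R848. Tlr4, by contrast, held 6.27% and 6.58% in WT Nostim and 1.61% and 1.43% in WT R848. Tlr13 alone held 47.5% and 49.3% in WT Nostim, 37.8% and 39.1% in KO Nostim, 17.9% and 18.6% in WT R848 and 21.7% and 24.5% in KO R848. The summed level of the 4 endosomal receptors was 109 ± 2.97 CPM per kb in WT Nostim and 113 ± 8.38 in WT R848, whereas that of the surface receptors was 46.8 ± 0.14 and 381 ± 48.3. The 8 genes do not include Tlr5, which is described below. It stood at 11.3 ± 2.23 CPM per kb in WT Nostim, 2.48 ± 1.39 in WT R848, 8.04 ± 0.35 in KO Nostim and 1.32 ± 0.28 in KO R848. These shares are given without a test.

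**Figure D1:**
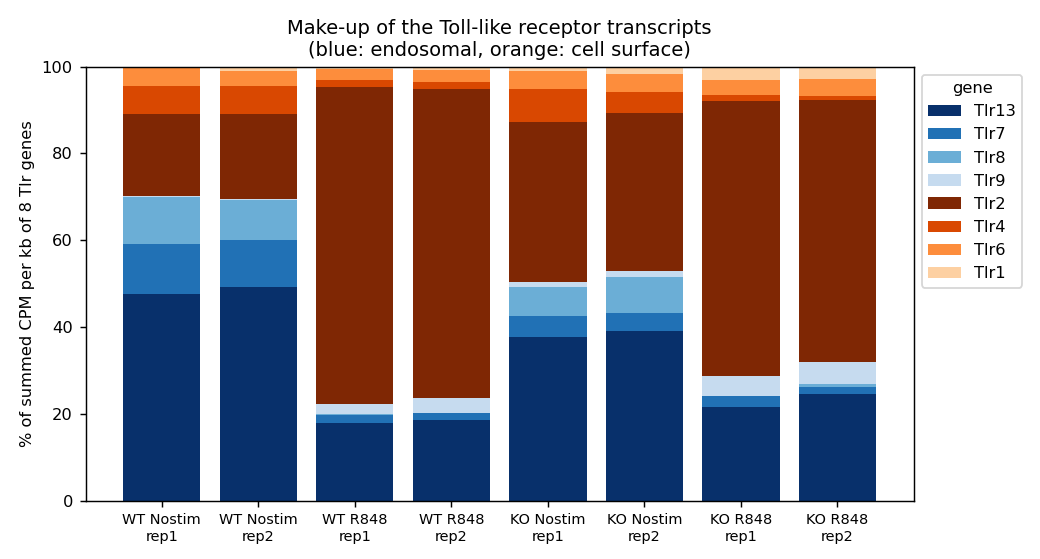
Share of each of 8 Tlr genes in their summed level (CPM per kb of exon, in percent) in the 8 libraries, as stacked bars that end at 100. The surface receptors (orange) take 29.7% to 30.4% of the bar in WT Nostim and 76.5% to 77.8% in WT R848, mostly Tlr2.

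The response of WT neutrophils to R848 was examined first. Of the 10 genes, 6 rose, namely Cd14, Tlr1, Tlr2, Tlr6, Tlr9 and Unc93b1, and 1 fell, Tlr8. To be called, a response had to exceed 2-fold with a false discovery rate under 0.1. Among all 12254 genes tested, 7.18% were called higher and 10.8% lower in this comparison. The median log2 fold change was 1.10 over the 10 genes and -0.17 over all genes tested.

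The surface side carried the largest rise. Cd14 had 5 and 11 counts in WT Nostim and 1517 and 1473 in WT R848, which were 7.73 and 18.98 CPM against 3096 and 2607 CPM. The log2 fold change was 7.75 ± 0.15 (SE). Tlr2, the receptor of lipoproteins that pairs with Tlr1 or Tlr6, stood at 89.7 CPM in both WT Nostim libraries and at 1178 and 977 CPM in WT R848. Both R848 libraries were far above both unstimulated ones, and the log2 fold change was 3.58 ± 0.13 (edgeR adjusted p = 3.83e-172). The adjusted p-values are Benjamini-Hochberg values over all genes tested from edgeR's quasi-likelihood test, unless DESeq2 is named.

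The partners of Tlr2 rose less. Tlr6 went from 24.7 and 18.98 CPM to 46.9 and 46.0 CPM in WT, without overlap, with a log2 fold change of 1.07 ± 0.34 (edgeR adjusted p = 0.0096). Tlr1 had 1 and 3 counts in WT Nostim and 5 and 7 in WT R848, and its log2 fold change of 1.76 ± 0.78 (edgeR adjusted p = 0.085) rested on these few counts. The ratio of its shares of the library totals was 2.82, with an exact 95% interval of 0.856 to 12.01 for counting error alone, which includes no change. The Tlr1 call was absent with DESeq2, at a log2 fold change of 1.86 (adjusted p = 0.21), with library size alone, at 1.46 (edgeR adjusted p = 0.16), without WT Nostim replicate 1, at 1.11, and without WT R848 replicate 2, at 1.70. The Tlr6 call was absent without WT Nostim replicate 2, at 0.90 (edgeR adjusted p = 0.10). Per kb, Tlr2 was 4.12 and 4.36 times the sum of Tlr1 and Tlr6 in WT Nostim and 24.4 and 19.7 times in WT R848.

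Tlr4, the receptor of lipopolysaccharide, had 54.1 and 55.2 CPM in WT Nostim and 46.9 and 35.4 CPM in WT R848. The R848 libraries were the lower ones, but the log2 fold change of -0.42 ± 0.29 did not pass (edgeR adjusted p = 0.32).

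The endosomal receptors moved in different directions. Tlr9, the receptor of DNA with unmethylated CpG, had 1 count in each WT Nostim library and 20 and 29 counts in WT R848, or 1.55 and 1.73 CPM against 40.8 and 51.3 CPM. From counts this low only a wide ratio can be had: the share of the library total was 23.0 times higher after R848, with an exact 95% counting interval of 6.05 to 196, and the adjusted p of edgeR was 4.27e-13. Tlr8, which binds products of RNA breakdown, went the other way, with 38 and 28 counts in WT Nostim and 2 and 0 in WT R848. Its share was 35.1 times higher without R848 (exact 95% counting interval 9.33 to 296) and the adjusted p of edgeR was 3.62e-14.

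Tlr7, the receptor that R848 activates, stood at 72.7 and 65.6 CPM in WT Nostim and 40.8 and 30.1 CPM in WT R848. The log2 fold change of -0.98 ± 0.28 passed the false discovery rate (edgeR adjusted p = 0.0031) but was within 2-fold. It was past 2-fold without WT Nostim replicate 2, at -1.05, without WT R848 replicate 1, at -1.06, with edgeR's filterByExpr filter, at -1.03, and with library size alone, at -1.28. It did not pass the false discovery rate without WT R848 replicate 2, at -0.66 (edgeR adjusted p = 0.19), or with DESeq2, at -0.90 (adjusted p = 0.14). Tlr13 had 305 and 307 CPM without and 388 and 343 CPM with R848 in WT, a log2 fold change of 0.25 ± 0.12 that did not pass (edgeR adjusted p = 0.11) and was -0.05 when scaled by library size alone. Unc93b1 rose from 224 and 260 CPM to 486 and 572 CPM, a log2 fold change of 1.13 ± 0.12 (edgeR adjusted p = 7.07e-21). With library size alone as the scale, the Unc93b1 and Tlr6 changes, at 0.83 and 0.77, were within 2-fold, the Tlr1 call was lost as given above, and the median of all genes with at least 10 counts on average then stood at -0.38 in place of -0.07. Among all genes called, 39.9% were higher with TMM factors and 23.0% with library size alone.

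**Figure D2:**
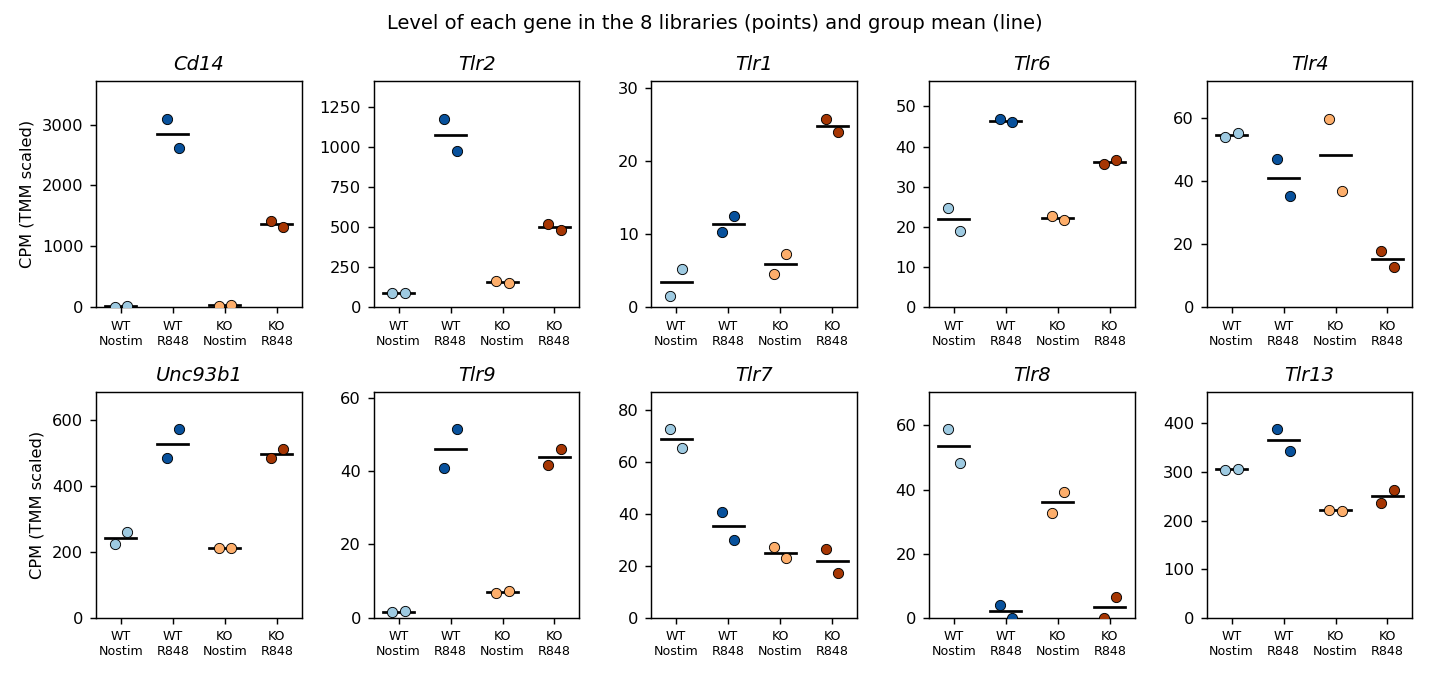
Level of each of the 10 genes in CPM scaled with TMM factors (linear axis from 0, its own for each gene) in the 2 libraries of each group, with the group mean as a line. Cd14, Tlr2 and Tlr9 are far higher in the R848 groups, Tlr8 is at or near 0 there, and Tlr13 stays between 220 and 388 CPM in all libraries.

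In Padi4 KO neutrophils, R848 was followed by a rise of 5 of the 10 genes, Cd14, Tlr1, Tlr2, Tlr9 and Unc93b1, and by a fall of 2, Tlr4 and Tlr8. Among all genes tested, 8.09% were called higher and 8.83% lower in this comparison. The median log2 fold change was 0.97 over the 10 genes and -0.03 over all genes tested. With library size alone, 23.1% of all genes called were higher, against 47.8% with TMM factors.

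Cd14 stood at 22.6 and 29.0 CPM in KO Nostim and 1409 and 1320 CPM in KO R848, a log2 fold change of 5.68 ± 0.12. Tlr2 went from 160 and 152 CPM to 516 and 480 CPM, a log2 fold change of 1.68 ± 0.10 (edgeR adjusted p = 7.36e-58). For both genes the R848 libraries were well above the unstimulated ones.

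Tlr1 rose from 4.52 and 7.25 CPM to 25.8 and 23.9 CPM in KO neutrophils, a log2 fold change of 1.98 ± 0.40 (edgeR adjusted p = 7.07e-06). Tlr6 stood at 22.6 and 21.8 CPM without and 35.5 and 36.7 CPM with R848, a log2 fold change of 0.71 ± 0.26 (edgeR adjusted p = 0.027), which was within 2-fold. Tlr4 fell from 59.9 and 37.0 CPM to 17.8 and 12.9 CPM, by 1.58 ± 0.27 on the log2 scale (edgeR adjusted p = 6.19e-08). The Nostim libraries differed widely for Tlr4 here, yet both were above both R848 libraries.

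Tlr9 had 6 and 10 counts in KO Nostim and 47 and 50 in KO R848. Its log2 fold change was 2.61 ± 0.33 (edgeR adjusted p = 8.01e-14), and the ratio of shares was 4.77 with an exact 95% counting interval of 2.79 to 8.67. Tlr8 had 29 and 54 counts without R848 and 0 and 7 with it, and its share was 15.1 times higher without R848 (exact 95% counting interval 6.999 to 38.7). As in WT, the R848 libraries of Tlr9 and of Tlr8 lay clear of the unstimulated ones.

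Unc93b1 rose from 212 and 210 CPM to 485 and 511 CPM in KO neutrophils, a log2 fold change of 1.24 ± 0.10 (edgeR adjusted p = 1.29e-34), and this change was 0.86, within 2-fold, with library size alone. Tlr7, at 27.1 and 23.2 CPM without and 26.7 and 17.5 CPM with R848, overlapped between the groups and did not pass, at -0.16 ± 0.29 on the log2 scale. Tlr13, at 223 and 220 CPM without and 237 and 263 CPM with R848, did not pass either, at 0.17 ± 0.11, and was at -0.20 with library size alone.

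**Figure D3:**
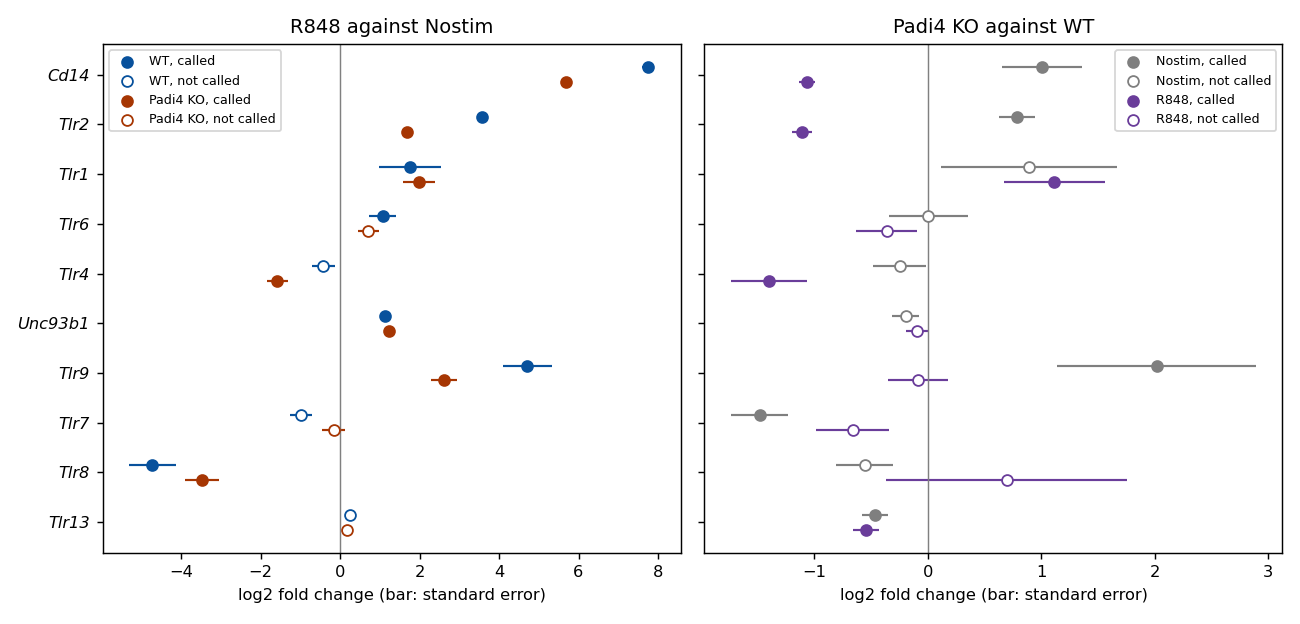
Log2 fold changes of the 10 genes (points) with standard errors (bars): R848 against Nostim in WT and Padi4 KO on the left, and Padi4 KO against WT in Nostim and in R848 on the right. Filled points were called. On the left Cd14 lies at 7.75 in WT and 5.68 in KO and Tlr2 at 3.58 and 1.68, and on the right both genes lie above 0 in Nostim and below 0 in R848.

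The difference between the responses was tested as an interaction. Of the 10 genes, 3 responded differently in Padi4 KO neutrophils, Cd14, Tlr2 and Tlr4, and each had the lower log2 fold change there. Among all genes tested, 1.26% had a lower and 3.44% a higher response in Padi4 KO at a false discovery rate below 0.1. Of the genes called, 73.2% were higher with TMM factors, 40.7% with RLE factors and 60.0% with library size alone. With TMM factors and any 1 of the 4 R848 libraries left out, 17.4% to 26.2% were higher: 52 higher and 246 lower without WT R848 replicate 1, 124 and 349 without WT R848 replicate 2, 67 and 225 without KO R848 replicate 1, and 69 and 196 without KO R848 replicate 2. Thinned counts gave 19.9% higher and DESeq2 28%. The direction of the background for this comparison therefore did not hold over the alternatives.

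Tlr2 had a response lower by 1.90 ± 0.18 on the log2 scale, and the difference was between -2.27 and -1.87 in 15 alternatives. The adjusted p of the Tlr2 difference was 4.12e-23 with edgeR and between 2.07e-34 and 3.75e-15 in those alternatives. The Cd14 difference was -2.07 ± 0.35 (edgeR adjusted p = 3.84e-06), between -2.82 and -1.54 in the alternatives, and the value nearest 0 was found without WT Nostim replicate 1, which had 5 counts. The Tlr4 difference was -1.16 ± 0.41 (edgeR adjusted p = 0.095), just inside the threshold. The Tlr4 difference was not called without KO Nostim replicate 1, at -0.85 (adjusted p = 0.40), or without any of WT Nostim replicate 1, WT Nostim replicate 2, WT R848 replicate 1 and KO R848 replicate 2, at -1.22 to -1.14 (adjusted p = 0.16 to 0.23), nor with no filter, at -1.16 (adjusted p = 0.10), nor at a false discovery rate of 0.05, nor with DESeq2, which gave no adjusted p for Tlr4.

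Tlr9 had a difference of -2.10 ± 0.92 (edgeR adjusted p = 0.24), which rested on 2 counts in WT Nostim. Tlr7 had a difference of 0.82 ± 0.41 (edgeR adjusted p = 0.36). The other 5 genes had edgeR adjusted p-values of 0.70 or more. Of these, Unc93b1 had a difference of 0.10 ± 0.15 and Tlr13 of -0.08 ± 0.16, whereas the error for Tlr8, 1.25 ± 1.08, and Tlr1, 0.23 ± 1.08, would have hidden even a large difference.

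Without stimulation, Padi4 KO neutrophils had more Cd14, Tlr2 and Tlr9 transcripts and fewer Tlr7 and Tlr13 transcripts than WT. Among all genes tested, 9.54% were called higher and 14.4% lower in KO at a false discovery rate below 0.1. Of the genes called, 39.8% were higher with TMM factors, 77.2% with library size alone and 55.2% to 57.3% with any 1 of the R848 libraries left out.

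Tlr7 had 47 and 38 counts in WT Nostim and 24 and 32 in KO Nostim, or 72.7 and 65.6 CPM against 27.1 and 23.2 CPM. The log2 fold change of Tlr7 was -1.48 ± 0.25 (edgeR adjusted p = 1.3e-07) and it stayed between -1.56 and -1.19 in 16 alternatives. Tlr13 had 305 and 307 CPM in WT and 223 and 220 CPM in KO, a log2 fold change of -0.47 ± 0.12 (edgeR adjusted p = 0.00067) that was -0.18 and not called with library size alone (adjusted p = 0.34).

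Tlr2 stood at 89.7 CPM in both WT libraries and at 160 and 152 CPM in KO, a log2 fold change of 0.79 ± 0.16 (edgeR adjusted p = 1.16e-05). Cd14 stood at 7.73 and 18.98 CPM in WT and 22.6 and 29.0 CPM in KO, without overlap, with a log2 fold change of 1.01 ± 0.35 (edgeR adjusted p = 0.040). It was not called without WT Nostim replicate 1, at 0.48 (adjusted p = 0.60), or without KO Nostim replicate 2, at 0.79 (adjusted p = 0.32). Tlr9 had 1 and 1 counts in WT against 6 and 10 in KO, a ratio of shares of 5.29 with an exact 95% counting interval of 1.24 to 47.5 (edgeR adjusted p = 0.091). The Tlr9 call was lost with DESeq2, with no filter, with the replicate block (adjusted p = 0.10) and without any 1 of the 4 unstimulated libraries (adjusted p = 0.12 to 0.33).

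Of the remaining genes, Tlr8 stood at 58.8 and 48.3 CPM in WT and 32.8 and 39.2 CPM in KO, and its log2 fold change of -0.55 ± 0.25 did not pass (edgeR adjusted p = 0.11). Tlr1, Tlr4, Tlr6 and Unc93b1 had edgeR adjusted p-values of 0.29 to 1.

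Markers of other cells moved with genotype. The summed level of 7 monocyte and macrophage markers was 399 to 487 CPM of the library total in WT Nostim and 1056 to 1086 in KO Nostim, and 5 of the 7 were called higher in KO. It was 865 to 999 CPM in WT R848 and 1357 to 1392 in KO R848, again with 5 of the 7 called higher in KO. Over all genes, 9.54% were called higher in KO without R848 and 9.44% after it. The sum of 8 erythroid markers was 53.3 to 54.6 CPM in WT Nostim, 567 to 578 in KO Nostim, 9.83 to 11.96 in WT R848 and 818 to 846 in KO R848. Of the 8, 7 were called higher in KO without R848 and 8 after it. The sum of the neutrophil markers was 92798 to 97849 CPM in WT Nostim and 77567 to 79774 in KO Nostim, and 87587 to 102157 in WT R848 and 73711 to 75088 in KO R848. Of the 7 markers, 6 were called lower in KO without R848 and 5 after it, against 14.4% and 7.84% over all genes. S100a8 and S100a9, at 27105 and 47471 CPM on average in WT Nostim, made up most of the sum. Cxcr2 was called in neither comparison of genotypes, and Csf3r was not called after R848. The sum of 6 stromal and endothelial markers was 185 to 217 CPM in WT Nostim, 508 to 652 in KO Nostim, 19.4 to 21.3 in WT R848 and 27.2 to 30.9 in KO R848. Of these, Col1a1 and Col1a2, 2 of the 4 tested, were called higher in KO Nostim and lower after R848 in both genotypes. The share of all genes called lower after R848 was 10.8% in WT and 8.83% in KO. Within the monocyte list, Csf1r and Cx3cr1 rose and Ccr2 and F13a1 fell after R848 in both genotypes. Monocytes are known to express Cd14, Tlr2 and most other members, and the part of these cells in the results was not tested. The study reports a high purity of neutrophils after its magnetic isolation. In bulk RNA, fewer cells of a type and less RNA per cell cannot be told apart. The sum of 7 B cell markers was 4.92 to 16.8 CPM over all libraries. That of 5 plasmacytoid dendritic cell markers was 1.78 to 3.12 CPM in WT Nostim, 7.26 to 8.37 in KO Nostim, 0 to 3.28 in WT R848 and 5.94 to 8.82 in KO R848. On this scale Tlr9 stood at 1.56 and 1.78 CPM in WT Nostim and 8.37 and 9.07 in KO Nostim. The B cell sum was 6.24 to 7.11 CPM in WT Nostim and 6.98 to 8.16 in KO Nostim. The part of these cells in the results was not tested. Of the B cell markers, Ms4a1, Pax5, Ebf1 and Vpreb1 had at most 1 count in all libraries together, as had Siglech and Cox6a2 of the 5 dendritic cell markers.

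After R848, the comparison of genotypes had the opposite sign for Cd14 and Tlr2. Padi4 KO neutrophils had fewer Cd14, Tlr2, Tlr4 and Tlr13 transcripts than WT and more of Tlr1. Among all genes tested, 7.84% were called lower and 9.44% higher in KO. Of the genes called, 54.6% were higher with TMM factors, 42.1% with RLE factors, 81.8% with library size alone and 36.7% to 42.8% with any 1 of the R848 libraries left out. This comparison shares its libraries with those above.

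Cd14 stood at 3096 and 2607 CPM in WT R848 and at 1409 and 1320 CPM in KO R848, a log2 fold change of -1.06 ± 0.07 (edgeR adjusted p = 1.25e-45). Tlr2 stood at 1178 and 977 CPM against 516 and 480 CPM, a log2 fold change of -1.11 ± 0.09 (edgeR adjusted p = 2.73e-34). With library size alone the log2 fold changes of Cd14 and Tlr2 were -0.84 and -0.89, and both were called in all 16 alternatives.

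Tlr4 had 46.9 and 35.4 CPM in WT against 17.8 and 12.9 CPM in KO, a log2 fold change of -1.40 ± 0.34 (edgeR adjusted p = 5.41e-04). Tlr13 had 388 and 343 CPM against 237 and 263 CPM, a log2 fold change of -0.54 ± 0.11 (edgeR adjusted p = 3.8e-05). Both genes had no overlap between genotypes. Tlr1 was the exception in direction, with 10.2 and 12.4 CPM in WT and 25.8 and 23.9 CPM in KO, a log2 fold change of 1.12 ± 0.44 (edgeR adjusted p = 0.075). It was not called with DESeq2 or RLE factors, or without any 1 of the 4 R848 libraries (adjusted p = 0.17 to 0.40).

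Tlr9 was at 40.8 and 51.3 CPM in WT R848 and 41.8 and 45.9 CPM in KO R848, with overlap, and its log2 fold change was -0.08 ± 0.26. Unc93b1 was at 486 and 572 CPM against 485 and 511 CPM, with a log2 fold change of -0.09 ± 0.10 that was called without WT R848 replicate 1, at -0.34 (edgeR adjusted p = 0.014), and with thinned counts, at -0.28 (edgeR adjusted p = 0.079), and stood at 0.12 with library size alone. Tlr7 was at 40.8 and 30.1 CPM against 26.7 and 17.5 CPM, and its log2 fold change of -0.66 ± 0.32 did not pass (edgeR adjusted p = 0.18), although it was called with RLE factors, with thinned counts and without KO R848 replicate 1. Tlr6 and Tlr8 did not pass, and Tlr8 was at or below 6.43 CPM in all 4 libraries.

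The other Toll-like receptor genes of the mouse were also looked up. Tlr5, the receptor of flagellin, was the only 1 of Tlr3, Tlr5, Tlr11 and Tlr12 that passed the filter. It fell from 52.6 and 39.7 CPM to 6.12 and 14.2 CPM in WT, by 2.14 ± 0.42 on the log2 scale (edgeR adjusted p = 3.86e-06). In KO neutrophils Tlr5 fell from 33.9 and 31.9 CPM to 6.22 and 4.59 CPM, by 2.56 ± 0.38 (edgeR adjusted p = 2.58e-10). Tlr3 and Tlr12 had 1 count each and Tlr11 had 0 in the 8 libraries together.

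The genes that work with the receptors were described by 3 lists. Of 6 genes for accessory proteins and ligand transfer, 2 fell in WT and 3 fell and 2 rose in KO after R848. Over all genes, 10.8% fell in WT, and 8.83% fell and 8.09% rose in KO. DESeq2 called 2 of the 6 in WT and 3 in KO. Lbp, which binds lipopolysaccharide and passes it to Cd14, went from 145 and 147 CPM to 26.5 and 35.4 CPM in WT and from 124 and 115 CPM to 23.1 and 22.0 CPM in KO. Its log2 fold changes were -2.22 ± 0.24 (edgeR adjusted p = 1.78e-18) and -2.38 ± 0.20 (edgeR adjusted p = 2.61e-31). Thus Lbp fell in the same libraries in which Cd14 rose. Grn, whose product binds DNA ligands of Tlr9, went from 353 and 352 CPM to 98.0 and 104 CPM in WT and from 320 and 277 CPM to 122 and 150 CPM in KO. The Grn response differed by 0.67 ± 0.20 between genotypes (edgeR adjusted p = 0.031), but not with DESeq2, which called 0 of the 6. Between genotypes, Grn was at -0.25 in KO against WT without R848 and at 0.42 after it, calls that DESeq2 did not make. The others called after R848 in KO, Cd36 and Ly96 (higher) and Ly86 (lower), had under 10 counts on average and were picked out once their values were known.

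Of 20 tested genes for folding, trafficking and processing of the endosomal receptors, 6 rose and 1 fell in WT and 8 rose and 1 fell in KO after R848, with a median log2 fold change of 0.63 and 0.55. Over all genes, 7.18% rose and 10.8% fell in WT and 8.09% rose and 8.83% fell in KO. DESeq2 called 5 of the 20 in WT (5430427O19Rik, Ctsb, Ctsl, Slc15a3 and Slc15a4) and 6 in KO (Ctsb, Ctsl, Ctss, Lgmn, Slc15a3 and Slc15a4). Slc15a3, a transporter of the endosome membrane, had the most counts among the transporters and rose from 173 and 179 CPM to 921 and 883 CPM in WT and from 154 and 133 CPM to 570 and 629 CPM in KO. Its log2 fold changes were 2.35 ± 0.11 and 2.08 ± 0.10. Lgmn and Ctsl, proteases of the endosome that can cut endosomal receptors, and 5430427O19Rik had the largest log2 fold changes of this list when the larger value of the 2 genotypes was taken for each gene. Lgmn, with 0 counts in KO Nostim replicate 1, had a log2 fold change of 1.78 ± 0.55 in WT (edgeR adjusted p = 0.0068) and 2.77 ± 0.33 in KO (edgeR adjusted p = 3.97e-16). Ctsl had 2.66 ± 0.50 in WT (edgeR adjusted p = 1.05e-06) and 1.58 ± 0.26 in KO (edgeR adjusted p = 2.31e-08). The gene 5430427O19Rik, the mouse gene of the Slc15a4 partner TASL, went from 6.19 and 5.18 CPM to 34.7 and 30.1 CPM in WT, a log2 fold change of 2.47 ± 0.52 (edgeR adjusted p = 2.4e-05). In KO it stood at 14.7 and 11.6 CPM without and 19.5 and 21.1 CPM with R848, a log2 fold change of 0.66 ± 0.35 that did not pass (edgeR adjusted p = 0.15). Its difference of response, -1.81 ± 0.66, did not pass either (edgeR adjusted p = 0.12). Ctsb rose in both genotypes, by 1.60 and 1.59, and Rnaset2b by 1.30 and 1.09. Dnase2a and Slc15a4 rose in KO, by 1.11 and 1.39 (Slc15a4 was within 2-fold in WT, at 0.96), as did Rab7b, with under 10 counts on average and picked out once its values were known, while Pld3 fell by 1.23 in WT and Ctss by 1.27 in KO. No response of the 20 differed between the genotypes by edgeR's quasi-likelihood test, with 4 at an unadjusted p under 0.05 and 0 called by DESeq2. Over all genes, 3.44% had a higher and 1.26% a lower response in KO, so that 0 of 20 was near the background.

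Between genotypes, Pld4 and Ctss were higher in KO both without R848, by 1.32 and 1.19 on the log2 scale, and after it, by 1.21 and 0.75. Dnase2a was higher by 1.75 and 1.42. Lrrc59 and Ctsl were higher in KO without R848, by 1.15 and 1.49, and Lgmn and Ctsb after R848, by 1.09 and 0.24. Slc15a3 was lower in KO, by -0.32 without R848 and by -0.59 after it, and Sdcbp was lower by -0.28 after R848. Over all genes, 9.54% were higher and 14.4% lower in KO without R848, and 9.44% and 7.84% after it. DESeq2 called 3 of these 6 genes without R848, Ctss, Lrrc59 and Pld4, and 3 of the 7 after it, Pld4, Sdcbp and Slc15a3.

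Of 15 tested adaptors, kinases and factors, 3 rose in WT, Irak2, Irak3 and Irf5, and 5 rose in KO, the same 3 with Irf3 and Traf3. Over all genes, 7.18% rose in WT and 8.09% in KO. DESeq2 called the same 3 and 5 genes. Irak3, a kinase-like inhibitor of receptor signalling, rose from 89.7 and 91.4 CPM to 1553 and 1455 CPM in WT and from 67.8 and 76.1 CPM to 1329 and 1303 CPM in KO. Its log2 fold changes were 4.05 ± 0.12 and 4.17 ± 0.11. Irak2, a signalling kinase, rose from 38.7 and 51.8 CPM to 541 and 453 CPM in WT and from 48.6 and 37.7 CPM to 259 and 276 CPM in KO. The Irak2 response was lower in KO by -0.79 ± 0.27 (edgeR adjusted p = 0.073), and DESeq2 called 0 of the 15 for this difference.

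Irf5, a transcription factor downstream of Myd88, rose by 1.76 ± 0.19 in WT and 1.12 ± 0.14 in KO on the log2 scale. Irf3 and Traf3 rose by 1.13 and 1.36 in KO. Tirap, the adaptor of Tlr2 and Tlr4, was lower in KO without R848, at -0.41 ± 0.16 (edgeR adjusted p = 0.059), and after it, at -0.56 ± 0.14 (edgeR adjusted p = 0.0010). Traf3 was lower in KO without R848, by -0.73, and Irak2 and Irak3 were lower in KO after R848, by -0.89 and -0.19. Over all genes, 14.4% were lower in KO without R848 and 7.84% after it, so that 2 of 15 without R848 was near the background. DESeq2 called 1 of the 2 genes lower without R848, Traf3, and the same 3 after it, Irak2, Irak3 and Tirap.

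**Figure D4:**
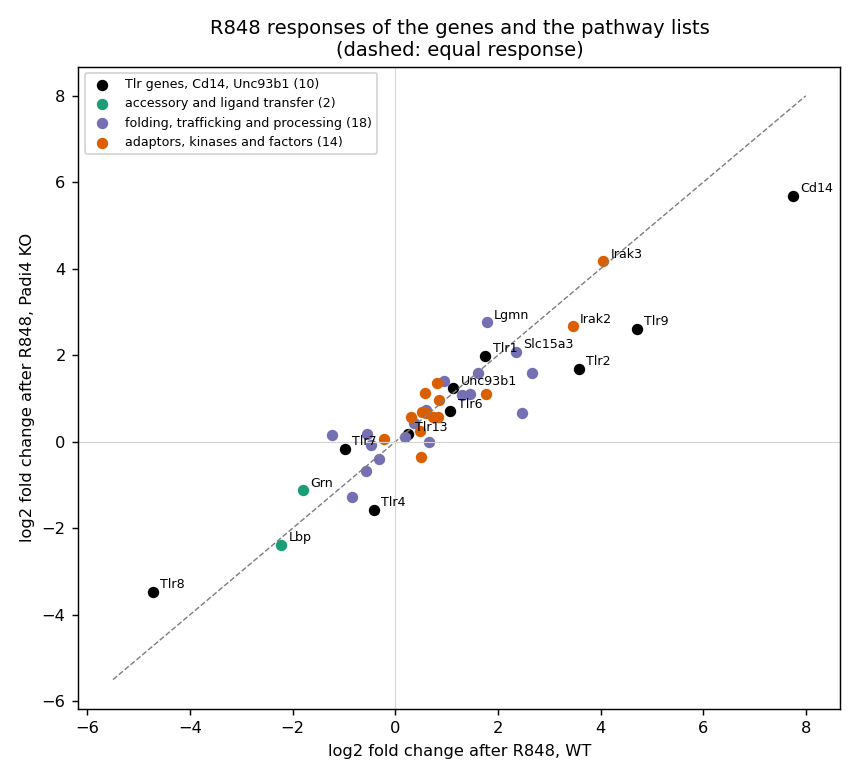
Log2 fold change after R848 in WT (horizontal) and Padi4 KO (vertical) for the 10 genes and for the genes of the 3 lists whose mean count was 10 or more, with the number of genes of each in the key. Points on the dashed line had equal responses in both genotypes. Cd14, Tlr2 and Tlr4, which were called for the difference of response, lie below it. Tlr9, which was not called, also lies below it, and Tlr8 lies at the lower left.

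Tlr2, Tlr13, Unc93b1 and Cd14 averaged 50 counts or more, and the genes nearest to them in level were looked up among 2918 genes that did so too. Likeness was Pearson's r of log2 CPM over the 8 libraries, which share the 4 groups and therefore the same treatment and genotype. Tlr2 was nearest to A530064D06Rik (r = 0.994), Ets2 (0.993) and Casp4 (0.985). Cd14 was nearest to Agpat4 (r = 0.999), Dusp16 (0.997) and Tyk2 (0.997). Unc93b1 was nearest to Srebf2 (r = 0.996), Pnrc1 (0.996) and Rhof (0.995), and Tlr13 to Dnajc13 (r = 0.981), Apobr (0.978) and Smg1 (0.977). Ets2, for instance, had group means of 69.0 CPM in WT Nostim, 797 in WT R848, 109 in KO Nostim and 461 in KO R848, the order that Tlr2 also had.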

How the data were processed

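The authors trimmed reads with cutadapt 1.16, checked them with FastQC 0.11.7, mapped them to mm10 with STAR 2.5.3a and counted them on genes with HTSeq 0.6.1p1 (versions from the submitters' processing notes), and deposited raw counts per gene symbol. Annotation and strand setting are not given in the sources used here. Groups and replicate numbers came from the labels. Genes with at least 1 count in at least 2 libraries (12254) entered edgeR 4.0.16 (limma 3.58.1, R 4.3.3) with TMM factors, 1 mean per group, robust quasi-likelihood test, 5 contrasts, Benjamini-Hochberg adjustment. Calls needed a false discovery rate under 0.1 and, for R848 responses, over 2-fold. Standard errors are the log2 fold change over the square root of F. Alternatives included DESeq2 1.42.0, other scaling and filters, thinned counts and leaving out each library. The replicate numbers were checked for pairing. Counting intervals and floors cover counting error only. Members and lists were chosen with earlier results of these data known. Of the lists, genes called with at least 10 counts on average were named, the 3 largest changes of each in full. Positions are GENCODE on GRCm38, the build of mm10. Duplicate libraries differed somewhat beyond counting noise, over genes with 20 or more counts in sum. Chi-square over its degrees of freedom was 1.05 in KO Nostim, 1.16 in WT Nostim, 1.19 in KO R848 and 1.83 in WT R848. The common coefficient of variation between libraries in edgeR was 4.7%.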

Additional observations from a re-analysis of the deposited data

Results flagged for a closer look

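The responses to R848 of 3 genes differed between Padi4 KO and WT neutrophils by a test of the difference itself (the interaction in edgeR's quasi-likelihood test, Benjamini-Hochberg adjusted). Tlr2 had a log2 difference of -1.90 ± 0.18 (adjusted p = 4.12e-23), with a smaller rise in KO. Cd14 had a log2 difference of -2.07 ± 0.35 (adjusted p = 3.84e-06), also with a smaller rise in KO. Tlr4 had a log2 difference of -1.16 ± 0.41 (adjusted p = 0.0953), with a fall in KO that passed and a change in WT that did not. This Tlr4 call was lost in several alternatives: without any 1 of 5 libraries (adjusted p = 0.16 to 0.40), with no filter (adjusted p = 0.10), at a false discovery rate of 0.05, and with DESeq2, which called Cd14 and Tlr2.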

How the results depend on the processing

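The number of the 10 genes called was 7 for R848 in WT, 7 for R848 in KO, 3 for the difference of response, 5 for KO against WT without R848 and 5 after R848. In 84 of 86 repeats over these counts it stayed within 1.5 times. This span is wide for such small counts and takes no account of which genes were called. In the repeats for single genes, 31 lost a call, 9 gained a call, 27 changed sign and 20 levels moved, while 743 stayed the same. Leaving out 1 library moved the count without R848 to between 3 and 5, with 3 without WT Nostim replicate 1 or KO Nostim replicate 2, where Cd14 and Tlr9 were lost. The block on the replicate number gave 7, 7, 3, 4 and 5 calls in that order. Deviations of same-numbered libraries correlated at -0.0057 to 0.036, so the numbers were not taken as pairs.

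Some log2 fold changes that were not called changed sign. With library size alone, they were -0.203 and -0.0533 for Tlr13 after R848 in KO and WT, 0.0423 for Tlr4 and 0.0935 for Unc93b1 in KO against WT without R848, and 0.131 for Tlr9 and 0.123 for Unc93b1 after it. The Unc93b1 difference of response was -0.0495 with DESeq2, -0.0536 with RLE factors and -0.143 with thinned counts, and that of Tlr7 was -0.195 with thinned counts. Leaving out 1 library gave differences of response from -0.787 to 0.868 for Tlr1, from -3.33 to 4.93 for Tlr8 and from -0.280 to 0.210 for Unc93b1. It gave -0.0294 to 0.177 for Tlr13 after R848 in KO, -0.546 to 0.141 for Tlr4 and -0.163 to 0.218 for Tlr6 in KO against WT without R848, and -3.76 to 4.51 for Tlr8 and -0.371 to 0.0222 for Tlr9 after it. The cause was not tested, apart from the scaling itself, which moved the median of all genes with at least 10 counts on average from 0.18 to 0.02 for the difference of response with RLE factors. Over all genes DESeq2 called 125 differences of response against 575 with edgeR, 1061 against 2936 genes without R848 and 1008 against 2118 after it, and 1289 against 2073 R848 responses in KO. With the longest coding transcript as gene length, an alternative chosen after seeing the data, Tlr4 passed Tlr7 in WT R848 and Tlr8 in KO Nostim in the order of the 10 genes. With library size alone, 20 of 40 group levels moved by more than their SD. Depth limits Tlr1, Tlr8 and Tlr9 most, since each had a group with fewer than 10 counts in sum.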
